A study of Mus musculus with 6 samples.

Results

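NF-κB is a family of dimeric transcription factors built from 5 related proteins, and 10 genes of this system are described here in bulge stem cells (SCs) of the hair follicle. They are 4 subunit genes (Nfkb1, Nfkb2, Rel and Relb), 3 genes of the IκB family (Nfkbia, Nfkbiz and Bcl3), the feedback genes Tnfaip3 and Zc3h12a, and the adhesion molecule Icam1. The genes were given as a list of symbols and found by matching the Ensembl identifiers of the deposited table to mouse symbols. All 10 were among the 43274 genes of the table. The libraries came from cells that FACS had purified as CD34+ with high α6 integrin from the epidermis of mice at postnatal day 21. There were 3 libraries from control mice with 1 floxed Ilk allele and 3 from ILK-K5 mice with both alleles floxed, and both genotypes carried Cre under the K5 promoter, which is active in basal epithelial cells. The labels write the genotypes as ILK +/- and ILK -/-. They do not say whether the libraries of a genotype came from separate mice, so p-values measure only the spread between these libraries.

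In resting cells NF-κB dimers are held in the cytoplasm by IκB proteins such as IκBα, the product of Nfkbia. Cytokines and microbial products activate the IKK kinases, IκBα is degraded, and the dimers enter the nucleus. Nfkbia and Tnfaip3 are themselves transcribed by NF-κB and shut the pathway down again, so that their mRNA is often read as a trace of recent signalling. Epithelial cells and leukocytes both use the pathway.

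The DNA element bound by NF-κB, the κB site, is a sequence of 10 bases. Because several of the 10 genes are known targets of the factor, their promoters were searched for the κB consensus on both strands. RefSeq promoter windows for GRCm38.p6, each from 250 bases before to 50 bases after a transcription start, were given for 7 of the 10 genes. The consensus was found in 5 of these 7 genes, Bcl3, Tnfaip3, Rel, Nfkbia and Nfkb2. Of all 27025 genes with a window, 9.55% held it (8.46% of the 32851 windows), and among the other NF-κB pathway genes listed for this work it was in 21 of 59. No match was found in the windows of Icam1 and Zc3h12a, which says only that these letters are absent there. Each line gives 30 bases 5′ to 3′ on the strand of the gene, with the bases that match the consensus in capitals.
Nfkbia, chr12:55492657-55492686, minus strand: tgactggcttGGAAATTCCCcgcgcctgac
Rel, chr11:23771041-23771070, minus strand: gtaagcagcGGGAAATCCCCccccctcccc
Tnfaip3, chr10:19015403-19015432, minus strand: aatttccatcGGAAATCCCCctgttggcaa
Tnfaip3, chr10:19015516-19015545, minus strand: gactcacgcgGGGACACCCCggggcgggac
Nfkb2, chr19:46304689-46304718, plus strand: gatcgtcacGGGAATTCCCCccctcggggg
Bcl3, chr7:19822734-19822763, minus strand: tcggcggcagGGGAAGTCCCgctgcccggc
The match of Nfkbia began 29 bases before the start, that of Rel 92, those of Tnfaip3 12 and 125, and that of Nfkb2 39 bases before it, whereas the match of Bcl3 began 2 bases after its start. In Rel and Nfkb2 overlapping matches on both strands make up a run of 11 bases. Nfkb2 held further matches, 1 more in the same window and 2 in the windows of its other starts. A match is a description of the sequence and was not tested for binding.

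Each library held 8228019 to 11969072 reads assigned to genes, and 1 read was worth 0.726 to 1.52 normalized counts. Mitochondrial genes took 11.5% to 27.6% of the reads. The sort marker Cd34 and other defining bulge markers were present in both genotypes. Cd34 itself was at 947 to 2009 normalized counts in the control and at 296 to 560 in the ILK-K5 libraries and fell by 1.90 on the log2 scale (limma, adjusted p = 0.0239), whereas Itga6, which encodes α6 integrin, and Krt15 did not pass the test (log2 fold changes 0.37 and -1.16). Ilk had 10.6 to 38.5 normalized counts in control and 14.8 to 30.9 in ILK-K5 libraries, but 89.7% of its exon bases also lie in exons of Rrp8 or Taf10, so that its reads did not check the genotype. Leukocyte RNA differed strongly between the genotypes. The summed level of 6 leukocyte markers was 43.4 to 122 normalized counts in control and 3323 to 4436 in ILK-K5 libraries, and that of 12 macrophage markers 610 to 1049 and 9792 to 13612. Most of the macrophage sum in controls came from Mertk, without which it was 88.2 to 123 in control and 9223 to 12880 in ILK-K5 libraries. All 6 leukocyte and 9 of 10 tested macrophage markers were called higher, against 2.93% of all genes tested (limma, adjusted p of 0.05 or less). Of these, Cd52, Coro1a, Cd53, Mrc1, C1qa, C1qb, C1qc and Fcgr1 had control means under 10 normalized counts, the limit for testing. These genes were tested only because of their ILK-K5 levels, so their calls are not comparable with that share. As these are bulk samples, fewer cells of a type and less RNA per cell cannot be told apart.

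The question of the comparison is which of these genes differ in level when ILK is missing from bulge SCs. None of the 10 genes was called, meaning an adjusted p of 0.05 or less, in the fit over all 16368 genes whose mean reached 10 normalized counts (limma on log2 of the normalized count plus 1). In that fit 2.93% of all genes tested were called higher and 0.599% lower. Before adjustment 5 of the 10 had a p under 0.05, namely Nfkbiz, Tnfaip3, Nfkb2, Icam1 and Bcl3, each with a higher mean in ILK-K5, where 12.3% of all genes tested had such a p in either direction. All ILK-K5 values exceeded all control values for 4 genes (Nfkb1, Nfkbiz, Bcl3 and Tnfaip3), which was so for 10.9% of all genes tested. All were lower than every control value for none of the 10 and for 6.95% of all genes. Of the 10 log2 fold changes 9 were above 0, with a median of 1.04 against 0.0054 over all genes tested. Bcl3 reached the limit of 10 normalized counts through its ILK-K5 libraries, as its control mean was 7.86.
On the recovered reads, edgeR's quasi-likelihood test called none of the 10 genes, where it called 2.58% of all genes higher, and DESeq2 called Nfkbiz and Tnfaip3 higher, where it called 4.72% of all genes higher. The names of same-numbered control and ILK-K5 libraries carry the same digits, whose ending is shared by replicates 2 and 3 but not by replicate 1. Controls were littermates of ILK-deficient animals, but no source used here explains the digits or ties them to a litter. Only 1 library of each genotype carries the ending of replicate 1, so that within it no test was possible. With a term for that ending, limma called Nfkbiz, Tnfaip3, Nfkb2 and Icam1 higher, and 5.17% of all genes. A term for each replicate number called the same 4 genes higher, where 848 of all genes tested were called higher.

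**Figure D1:**
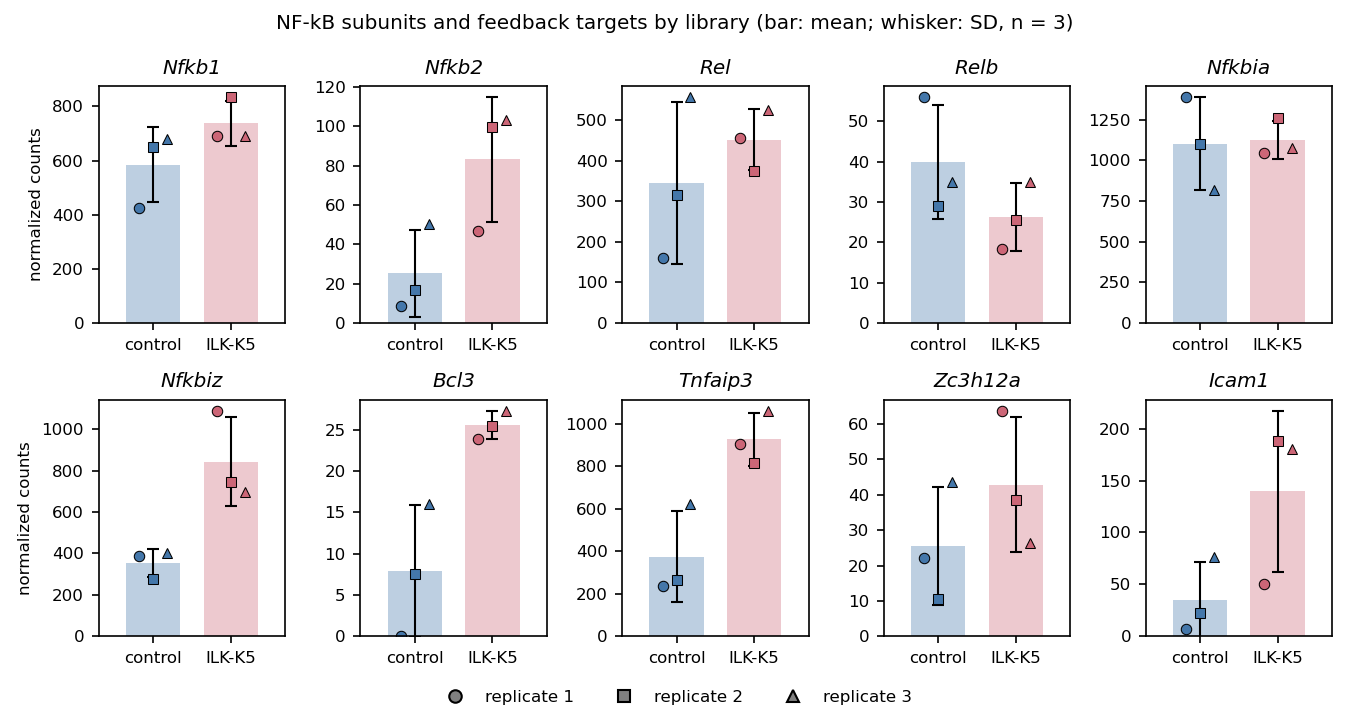
Normalized counts (vertical axes, from 0) of the 10 genes in each of the 3 control (blue) and 3 ILK-K5 (red) libraries, with bars for the mean and whiskers for the SD, which are clipped at 0 for Bcl3 and Icam1. Symbols mark the replicate, and the ILK-K5 points lie wholly above the control points for Nfkb1, Nfkbiz, Bcl3 and Tnfaip3.

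Positions are those of whole genes, exons and introns included, in GRCm38. Among the subunits, Nfkb1 (chr3:135584655-135691547, minus strand) encodes p105, the precursor that is processed to p50. It had 426, 649 and 680 normalized counts in the controls (libraries 1, 2 and 3, in that order, here and below) and 691, 834 and 690 in ILK-K5. The groups do not overlap, but ILK-K5 libraries 1 and 3 lie only slightly above control library 3. ILK-K5 minus control gave 0.36 on the log2 scale, with a standard error of 0.28, a 95% confidence interval from -0.26 to 0.98 and an adjusted p of 0.754 from limma.
Nfkb2 (chr19:46304320-46312385, plus strand) encodes p100, the precursor of p52 and the hallmark of the non-canonical branch of the pathway. Its normalized counts were 8.68, 16.7 and 50.1 in control and 46.7, 99.5 and 103 in ILK-K5 libraries. Control library 3 lay above ILK-K5 library 1, and all other control values were below all ILK-K5 values. The log2 fold change of 1.94 (standard error 0.67) had an adjusted p of 0.218 from limma and of 0.0372 with the term for the library names. Leaving out single libraries moved it from 1.40 without control library 1 (adjusted p = 0.405) to 2.60 without control library 3 (adjusted p = 0.0493), and adjusted p-values reached 0.640 without ILK-K5 library 2. Of the exon bases of Nfkb2, 18.1% lie also in exons of genes on the opposite strand, Psd and AC114539.1, and the sources used here do not say whether strand was used in counting.

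Rel (chr11:23736847-23770970, minus strand) encodes c-Rel, a transactivating subunit best known from lymphoid cells. It had 161, 316 and 557 normalized counts in control libraries and 457, 375 and 526 in ILK-K5 libraries. The control libraries spread more widely than the ILK-K5 libraries, and the highest value of all was that of control library 3. On the log2 scale the fold change was 0.55 (standard error 0.43, 95% confidence interval -0.41 to 1.52, adjusted p = 0.757 from limma), and with replicates 2 and 3 only it was 0.08. It ranged from 0.09 without control library 1 to 0.99 without control library 3.
Relb (chr7:19606217-19629438, minus strand), whose product pairs with p52, was the only one of the 10 genes with a lower mean in ILK-K5. Its normalized counts were 56.0, 28.9 and 34.8 in control and 18.2, 25.5 and 35.1 in ILK-K5 libraries. The groups overlap, since ILK-K5 library 3 was above control libraries 2 and 3. The log2 fold change was -0.58 (standard error 0.51, 95% confidence interval -1.73 to 0.58, adjusted p = 0.794 from limma), so that neither a fall to 0.301-fold nor a rise to 1.49-fold lies outside the interval.

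FPKM, which divides by gene length, allows the subunits to be set beside each other. Rela, which encodes p65, the subunit of the classical heterodimer with p50, was added for this purpose. In control bulge SCs Nfkb1 made up 41.2% ± 7.94 (SD, n = 3 libraries) of the summed FPKM of the 5 subunit genes, Rel 37.4% ± 7.43, Rela 15.2% ± 3.42, Relb 4.06% ± 3.24 and Nfkb2 2.17% ± 1.14. In ILK-K5 libraries the shares were 37.9% ± 4.97 for Nfkb1, 39.5% ± 5.91 for Rel, 14.8% ± 1.27 for Rela, 1.63% ± 0.403 for Relb and 6.09% ± 2.02 for Nfkb2. The ILK-K5 libraries also held leukocyte RNA, and its part in the shares was not tested. Nfkb1 and Rel thus led in both genotypes, and Nfkb2 took 1.43%, 1.60% and 3.49% in control libraries and 3.77%, 7.39% and 7.12% in ILK-K5 libraries, without overlap. The share of Relb was 7.79%, 2.33% and 2.05% in control and 1.24%, 1.60% and 2.05% in ILK-K5 libraries, also without overlap and in the other direction, though the nearest values differ only beyond the second decimal. For Rela itself the log2 fold change was 0.45 (adjusted p = 0.832 from limma). The shares are a description of mRNA and carry no test.

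**Figure D2:**
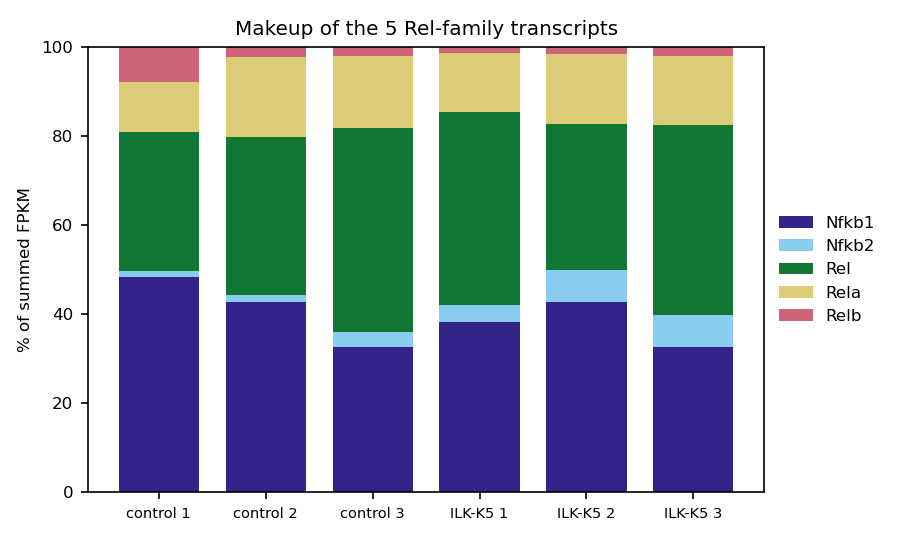
Share of each of the 5 Rel-family genes in their summed FPKM (vertical axis, percent) in each of the 6 libraries. Nfkb1 and Rel together fill most of every bar, and the light blue band of Nfkb2 is widest in ILK-K5 libraries 2 and 3, at 7.39% and 7.12%.

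Nfkbia (chr12:55489410-55492647, minus strand), the classical inhibitor and feedback target, was the most abundant of the 10 genes and the one with the smallest difference. It had 1388, 1099 and 816 normalized counts in control libraries and 1046, 1262 and 1076 in ILK-K5 libraries. The ILK-K5 libraries lay within the range of the controls. Its log2 fold change was 0.06 (standard error 0.27, adjusted p = 0.968 from limma), and its 95% confidence interval ran from a 0.680-fold to a 1.60-fold level. The sign was not stable, as it turned to -0.14 on leaving out control library 3 and to -0.02 on leaving out ILK-K5 library 2.
Nfkbiz (chr16:55811375-55838899, minus strand) encodes IκBζ, a nuclear IκB that acts with p50 to switch on a subset of NF-κB targets and is well known in keratinocytes. It had 390, 278 and 401 normalized counts in control and 1088, 745 and 696 in ILK-K5 libraries. Every ILK-K5 library was above every control library, with a wide gap between 401 and 696. The log2 fold change was 1.23 (standard error 0.29, 95% confidence interval 0.58 to 1.89), or 2.35-fold, with an adjusted p of 0.0559 from limma, 0.0617 from edgeR, 0.00876 from DESeq2 and 0.0109 with the term for the library names. With replicates 2 and 3 only it was 1.11 (adjusted p = 0.135), and leaving out single libraries gave adjusted p-values from 0.0660 to 0.195.

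Bcl3 (chr7:19808462-19822770, minus strand), another nuclear IκB and a partner of p50 and p52 dimers, was close to the detection limit. Its normalized counts were 0, 7.60 and 16.0 in control and 23.9, 25.5 and 27.3 in ILK-K5 libraries, from 0, 5 and 22 reads and from 21, 33 and 28 reads. The 0 of control library 1 allows a level of up to 2.89 normalized counts, a bound that covers counting error only. The groups do not overlap, and the log2 fold change was 2.33 (standard error 1.02, adjusted p = 0.399 from limma), but it was 1.13 without control library 1 and 1.18 with replicates 2 and 3 only. It also depended on the pseudocount added before taking logs, with 3.47 at 0.1 and 1.48 at 5, and was 1.64 in edgeR. Bcl3 and Relb lie 179023 bases apart on chromosome 7, and their means differed in opposite directions.

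Tnfaip3 (chr10:19000910-19015657, minus strand) encodes A20, a ubiquitin-editing enzyme that restrains signalling to the IKK complex and is a classical feedback target. It had 237, 266 and 621 normalized counts in control libraries and 904, 813 and 1060 in ILK-K5 libraries. No library of one genotype reached the other, although control library 3 stood well above the other controls. In the fit its log2 fold change was 1.43 (standard error 0.38, 95% confidence interval 0.58 to 2.29), or 2.70-fold, with an adjusted p of 0.0854 from limma, 0.162 from edgeR, 0.0488 from DESeq2 and 0.0279 with the term for the library names. Without control library 3 the log2 fold change was 1.87 (adjusted p = 0.00798), in a fit that called 3.42% of all genes higher. With replicates 2 and 3 only it was 1.19 (adjusted p = 0.298).
Zc3h12a (chr4:125118423-125127840, minus strand) encodes Regnase-1, a ribonuclease that degrades the mRNA of inflammatory genes. It was at 22.2, 10.6 and 43.5 normalized counts in control and at 63.8, 38.6 and 26.3 in ILK-K5 libraries. These groups overlap, with control library 3 above 2 of the 3 ILK-K5 libraries. Its log2 fold change was 0.85 (standard error 0.63, 95% confidence interval -0.58 to 2.27, adjusted p = 0.741 from limma), and at 7 to 60 reads per library a 1.80-fold difference did not pass the test. The value was 0.36 without control library 2 and 1.33 without control library 3.

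Icam1 (chr9:21015985-21028817, plus strand) encodes the cell surface ligand of leukocyte β2 integrins and is induced by NF-κB in epithelium and endothelium. It had 6.75, 22.8 and 76.2 normalized counts in control and 50.1, 188 and 180 in ILK-K5 libraries. The replicates 1 were lowest in both genotypes, and ILK-K5 library 1 lay below control library 3. The log2 fold change was 2.31 (standard error 0.84), with an adjusted p of 0.257 from limma, 0.151 from DESeq2 and 0.0156 with the term for the library names. With replicates 2 and 3 only it was 2.11 (adjusted p = 0.156). It was 1.49 without control library 1 (adjusted p = 0.474) and 3.15 without control library 3 (adjusted p = 0.0580). Exons of Gm47079 on the opposite strand cover 11.7% of the exon bases of Icam1.

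**Figure D3:**
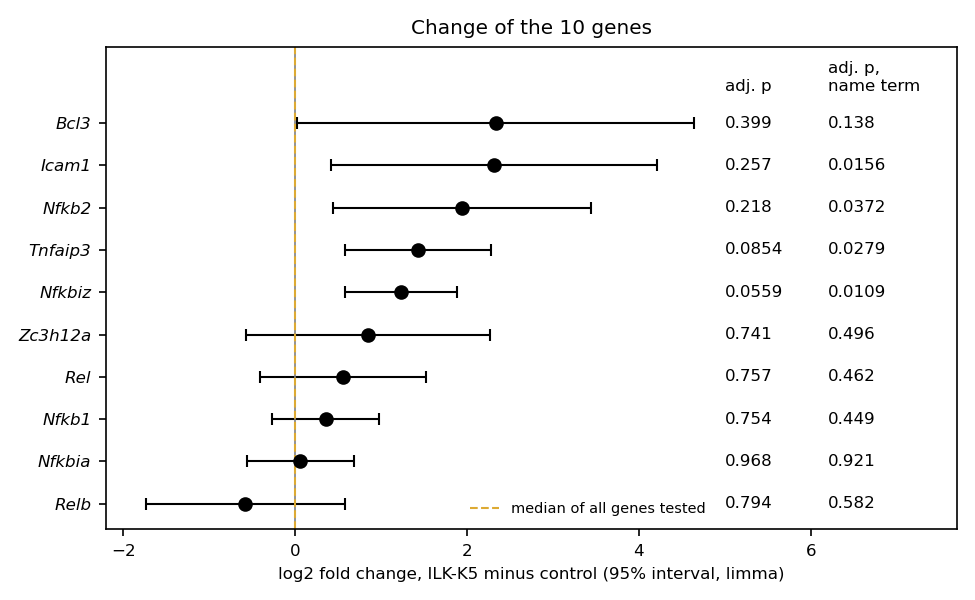
Log2 fold change (ILK-K5 minus control, horizontal axis) of the 10 genes with its 95% confidence interval from limma, beside the adjusted p-values without and with a term for the library names. The intervals of Bcl3, Icam1, Nfkb2, Tnfaip3 and Nfkbiz lie above 0, those of the other 5 genes include it, and the dashed line marks the median of all genes tested at 0.0054.

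On the FPKM scale the order of the levels was similar in both genotypes. In control bulge SCs Nfkbia led with 71.6 ± 18.6 FPKM (SD, n = 3 libraries), above 96.2% of the genes tested. It was followed by Rel with 12.6 ± 7.31, Nfkb1 with 12.6 ± 2.97, Nfkbiz with 7.28 ± 1.38 and Tnfaip3 with 5.32 ± 3.03. Icam1 (1.42 ± 1.47), Relb (1.05 ± 0.376), Zc3h12a (0.906 ± 0.594), Nfkb2 (0.784 ± 0.684) and Bcl3 (0.324 ± 0.329) were lowest. The libraries of Rel and Nfkb1 overlapped, as did those of Nfkbiz and Tnfaip3 and those of each neighbouring pair from Icam1 to Bcl3. Nfkbia was separate from the rest, and so were Nfkb1 from Nfkbiz and Tnfaip3 from Icam1. The ILK-K5 libraries also held leukocyte RNA, with Lyz2, a myeloid gene, at a mean of 279 FPKM against 0.867 in control libraries. Its part in the following levels was not tested. In ILK-K5 libraries Nfkbia was at 73.4 ± 7.59 FPKM, and Nfkbiz came second with 17.2 ± 4.37, overlapping Rel with 16.6 ± 2.77. Nfkb1 and Tnfaip3 came next with 15.8 ± 1.78 and 13.1 ± 1.77 FPKM, overlapping each other. Relb was the lowest there, with 0.693 ± 0.223 FPKM.

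Ratios within a library do not depend on the scaling between libraries. Relative to Nfkbia, the normalized count of Nfkbiz was 0.281, 0.253 and 0.491 in control and 1.04, 0.590 and 0.647 in ILK-K5 libraries, which do not overlap. Tnfaip3 stood at 0.171, 0.242 and 0.761 of Nfkbia in control and at 0.864, 0.644 and 0.985 in ILK-K5 libraries, where control library 3 lies above ILK-K5 library 2. For Rel the ratio was 0.362 ± 0.291 (SD, n = 3) in control and 0.407 ± 0.0990 in ILK-K5, with overlap. The smallest p that an exact permutation test of 3 against 3 libraries can give is 0.1, and no test was run on the ratios.

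Most of the 10 genes were highest in the same control library. Control library 3 was the highest control for 8 of the 10 genes (all but Relb and Nfkbia), which was so for 35.3% of all genes tested, and control library 1 was the lowest for 6, against 37.1%. The leukocyte sum was 122 normalized counts in control library 3 against 43.4 and 54.7 in libraries 1 and 2, and its mitochondrial share was the lowest at 11.5%. The sums of control library 3 for bulge markers (109426 normalized counts) and differentiated keratinocyte markers (21260) were the highest of the 6 libraries. Most of its bulge sum came from Krt15, at 97406 normalized counts, and none of the other bulge markers was highest in that library. The part of these differences in the levels of the NF-κB genes was not tested. In ILK-K5 libraries 1 to 3 the leukocyte sums were 3477, 4436 and 3323 normalized counts, and Nfkbiz was highest in library 1, Nfkb1 and Icam1 in library 2 and Tnfaip3 in library 3.
In the controls, where Ptprc, the common leukocyte antigen, was at 22.8 to 50.8 normalized counts, Nfkbia, Nfkb1, Rel, Nfkbiz and Tnfaip3 were each at 161 or more in every library. In normalized counts the low genes Nfkb2, Bcl3, Icam1 and Zc3h12a were at or below the level of Ptprc in control libraries 1 and 2. On the FPKM scale, which divides by length, the order was the other way for all but Bcl3 in library 1. Ptprc had 0.157 and 0.128 FPKM in these libraries, Nfkb2 0.271 and 0.521, and Icam1 0.273 and 0.921. Zc3h12a had 0.790 and 0.379 FPKM there, and Bcl3 0 and 0.314. In ILK-K5 libraries Ptprc stood at 1010 to 1431 and Lyz2, a myeloid lysozyme, at 1869 to 4998 normalized counts, and how much of each NF-κB gene came from such cells was not tested.

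A list of 77 other genes of the pathway was examined in the same fit. Of these, 66 were tested and 12 were called higher and none lower, against 2.93% and 0.599% of all genes tested. An unadjusted p under 0.05 was reached by 23, against 12.3% of all genes tested. The median log2 fold change was 0.58. Of the 12 called genes 6 had a control mean under 10 normalized counts and so were tested only because of their ILK-K5 levels. The count of called genes was 11, 6 and 14 without control library 1, 2 or 3, where 516, 310 and 559 of all genes were called higher. It was 5, 5 and 6 without ILK-K5 library 1, 2 or 3, where 268, 222 and 245 of all genes were called higher. With all libraries 479 of all genes were called higher. Among the other IκB genes, Nfkbie, which encodes IκBε, a further feedback inhibitor, had 31.8, 7.60 and 24.7 normalized counts in control and 207, 132 and 111 in ILK-K5 libraries. It rose by 2.91 on the log2 scale (standard error 0.57, adjusted p = 0.0246 from limma), whereas Nfkbib did not pass the test (log2 fold change 0.74, adjusted p = 0.529). None of the 5 IKK and IKK-related kinases was called (0 at an unadjusted p-value under 0.05), and Ikbkb and Ikbkg had log2 fold changes of 0.01 and 0.27. None of the 21 tested adaptors and upstream kinases was called either, with 6 at an unadjusted p-value under 0.05. Tab2 and Map3k7, which encode parts of the TAK1 complex, had log2 fold changes of 0.31 and 0.22.
Of 11 ubiquitin editors and their partners 1 was called. Tnip3, which encodes an A20-binding protein, had at most 2 reads in every control library and 288, 219 and 225 normalized counts in ILK-K5 libraries, so that it was at least 76.0-fold higher against a floor of 3 reads per library (adjusted p = 3.37e-04 from limma). Tax1bp1 and Otud7b had log2 fold changes of -0.38 and 0.21 and were not called.

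Of 33 other NF-κB target genes 25 were tested, and 10 were called higher, against 2.93% of all genes tested. Of these 10 genes, 5 passed the limit of 10 normalized counts only through their ILK-K5 libraries. Il1b, which encodes interleukin-1β, had 4.82, 25.8 and 30.5 normalized counts in control and 1563, 1318 and 1195 in ILK-K5 libraries, a log2 fold change of 6.31 (adjusted p = 5.78e-04 from limma). The chemokine gene Cxcl2 was at 0.965, 0 and 10.9 in control and at 410, 357 and 219 normalized counts in ILK-K5 libraries (log2 fold change 6.80, adjusted p = 0.00235). Log2 fold changes were 5.92 for Cd83, a surface protein of mature dendritic cells, 4.91 for Ccl2, 4.48 for Mmp9, 4.21 for Tnf, 3.68 for Tlr2 and 3.24 for Tnfaip2. Cxcl1 and Traf1, with 3.10 and 1.84, completed the list of called genes. Cflar, a target that blocks caspase activation and is abundant in the controls, had a log2 fold change of 0.40 and was not called.
The control means of the 12 called pathway genes ran from 0.484 to 46.0 normalized counts. Because a gene with a control mean under 10 enters the fit only if its ILK-K5 level is high, nothing is read from these control levels. The leukocyte and macrophage marker lists were also higher in ILK-K5, with median log2 fold changes of 5.82 and 6.52 over their tested genes. Several of these markers likewise passed the limit only through their ILK-K5 libraries. Whether the 12 genes varied with these markers between libraries was not tested. The part of leukocytes in the levels of the 12 genes was not tested either.

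**Figure D4:**
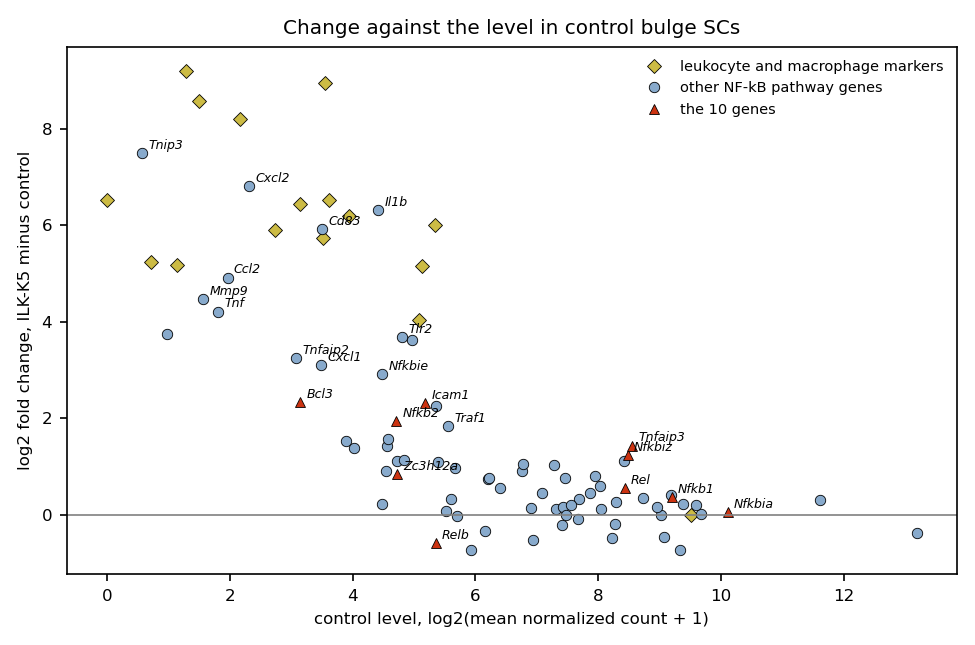
Log2 fold change (ILK-K5 minus control, vertical axis) against the level in control libraries (log2 of the mean normalized count plus 1, horizontal axis) for the 10 genes (red triangles), other pathway genes (blue circles) and leukocyte and macrophage markers (yellow diamonds). The called pathway genes, with control means of at most 46.0 normalized counts, lie to the left with all markers but Mertk, and Nfkbia lies near 0 at the right. Genes with a control mean under 10 normalized counts are shown only if their ILK-K5 level is high, so nothing is read from the pattern. The control level enters both axes.

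Markers of other cells the sort could hold were examined in the same fit. The T cell list had 1 of 5 tested genes called higher (Cd2) and the neutrophil list 2 of 4 (S100a8 and S100a9). The list of Langerhans and dendritic cells had 2 of 6 (Itgax and Epcam), and of all genes tested 2.93% were called higher. Cd2, S100a8 and S100a9 had control means of 0.726, 4.18 and 1.74 normalized counts, under the limit for testing. They were tested only because of their ILK-K5 levels, so the T cell and neutrophil calls are not comparable with that share. Epcam was already at 453 to 813 normalized counts in controls, where Itgax was at 7.72 to 13.7. Cd207 had 7.72 to 68.2 normalized counts in control and 108 to 425 in ILK-K5 libraries. Its log2 fold change was 2.63, and it was not called (adjusted p = 0.148 from limma). Among the other tested T cell genes, log2 fold changes were -0.47 for Cd3d, 0.36 for Cd247, 2.31 for Cd3g and 2.48 for Cd3e. Among the other tested neutrophil genes, they were 1.26 for Cxcr2 and 2.69 for Csf3r. Ly6g, which was not tested, had 11, 2 and 2 reads in control libraries and 0 reads in every ILK-K5 library. No gene was called in the B cell, mast cell, endothelial, fibroblast, melanocyte or basal keratinocyte lists, with 1, 1, 2, 3, 4 and 7 genes tested. Unadjusted p-values under 0.05 were reached by 0, 1, 1, 1, 1 and 2 of these. The mast cell genes Cpa3 and Tpsb2 were at 0 in all libraries. Among differentiated keratinocyte markers Lor was called lower, 1 of 7 tested, and among bulge markers Cd34, 1 of 8, against 0.599% of all genes tested.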

How the data were processed

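The authors removed adapters with flexbar and reads on ribosomal RNA, aligned the rest to GRCm38 (TopHat2 2.0.14 and Bowtie2 2.2.4 per the labels) and used DESeq2 1.6.3. The counting program and its use of strand are not given in the sources used here. The signal deposited by the authors is normalized counts. Dividing each library by its smallest step gave whole reads for 100% of values (tolerance 1e-06). The FPKM deposited by the authors equals the normalized count times 1 constant per gene. Tables of the authors' own comparison (mean level, log2 fold change, standard error, statistic, p-values) were not used. Symbols came from GENCODE M21 for 97.5% of 43274 genes.

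Genotypes were compared with limma 3.58.1 (lmFit, eBayes with trend, two-sided) in R 4.3.3 on log2(normalized count + 1) for genes with a mean of at least 10, with Benjamini-Hochberg adjustment over all 16368 genes and calls at 0.05. Where no control library exceeded 3 reads, the fold was set against that floor. Alternatives were other pseudocounts, filters and scalings, the FPKM table, edgeR 4.0.16, DESeq2 1.42.0, terms for replicate or library name, replicates 2 and 3 only, and each library left out. The fits were tested on simulated data. Figures used Python 3.11.15 and matplotlib 3.10.9.

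The 10 genes and all lists were chosen with earlier results of these data known, and pathway genes were named by a rule (all 10 genes, the called genes of each list up to 8, its 2 most abundant genes, and Rela). Cxcl1, Traf1, Cpa3, Tpsb2, Lor, Cd2, Cd207, Ly6g and the sum without Mertk were chosen after their values were seen. So were Cd3e, Cd3g, Cd247, Csf3r and Cxcr2. With 3 libraries per genotype and 8228019 to 11969072 reads, precision is limited by the spread between libraries.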

Additional observations from a re-analysis of the deposited data

How the results depend on the processing

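The median log2 fold change of the 10 genes stayed above 0 under all alternatives and was within the spread between replicates of the reported 1.04. Over all genes, 479 were called higher and 98 lower, against 555 and 106 with a pseudocount of 5 and 487 and 93 with TMM scaling. The counts were 772 and 280 with DESeq2, 848 and 269 with the replicate block and 846 and 286 with the term for the library names. Leaving out single libraries gave 222 to 559 higher and 32 to 98 lower genes, with 310, 268, 222 and 245 higher without control library 2 or ILK-K5 library 1, 2 or 3, in that order. Of the 10 genes 0 were called higher as reported, 1 (Nfkbiz) with a pseudocount of 5 or TMM scaling, 2 with DESeq2, and 4 with either the replicate block or the library-name term, and without single libraries 0 to 2, the 2 being Nfkb2 and Tnfaip3 without control library 3. The 12 called pathway genes became 5 to 14 when single libraries were left out (6 without control library 2, 5 without ILK-K5 library 1 or 2, 6 without ILK-K5 library 3). The fold change of Nfkbia turned to -0.14 without control library 3 and to -0.02 without ILK-K5 library 2 (range -0.14 to 0.25 over the 6 libraries left out), and no other gene of the 10 changed sign. The deviations of same-numbered libraries from their group means correlated at 0.53, 0.02 and 0.31, and control library 3 correlated best with ILK-K5 library 2 (0.50). With 3 libraries per genotype these values cannot settle whether the libraries are pairs. Same-numbered libraries share the digits in their names, but the main fit did not take the numbers as pairs. Under the replicate block the adjusted p from limma was 0.0118 for Nfkbiz, 0.00842 for Tnfaip3, 0.0103 for Icam1 and 0.0319 for Nfkb2. The causes of these differences were not tested. Relb, Bcl3 and Zc3h12a gave no value with a filter at a mean of 50. At the depth of these libraries Bcl3, Relb, Nfkb2 and Zc3h12a rest on few reads, from 0 to 129 per library.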
